A study of Homo sapiens with 8 samples.

Results

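The genes described are 10 mitotic kinases and cyclins: the cyclin-dependent kinase gene CDK1, its cyclin partners CCNB1, CCNB2 and CCNA2, and the kinase genes PLK1, AURKA, AURKB, NEK2, TTK and BUB1. They were chosen by name, and each had 1 row of its own in both deposited tables, which held 43299 gene rows for MCF10A and 43325 for the second line. MCF10A is a non-tumorigenic human mammary epithelial cell line, and the second line is described in the labels as MCF10A that overexpresses the NOTCH1 intracellular domain. The sources used here give neither the promoter of that transgene nor whether the line is a single clone. Both lines were grown in the same supplemented medium and received, for 3 days, either ginkgolic acid at 30 µM, an inhibitor of SUMO conjugation, or the solvent DMSO alone. The 8 samples formed 4 groups of 2, and the tables give 1 FPKM value per gene and group (fragments per kilobase of transcript, scaled to sequencing depth). Replicate errors, tests and library depths can therefore not be given for any value below.

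Entry into mitosis is driven by CDK1 bound to cyclin B, which is held inactive by inhibitory phosphorylation until CDC25 phosphatases remove it. Aurora A and the polo-like kinase PLK1 help to start this switch and build the spindle poles, Aurora B, BUB1 and TTK act at centromeres and kinetochores, and NEK2 separates the centrosomes. Most of the genes are transcribed mainly in G2 phase and mitosis. Several of their products are then removed by the anaphase-promoting complex (APC/C). In proliferating epithelium the mRNA of these genes thus marks dividing cells. In bulk RNA, a larger share of cells in G2 and mitosis and more transcript per cell cannot be told apart.

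Cell cycle genes of this kind are known to be controlled through a promoter element called the cell cycle genes homology region (CHR), bound by the DREAM and MuvB complexes, and through CCAAT boxes bound by NF-Y. RefSeq promoters (GRCh38.p14, 250 bases before to 50 after a transcription start) were found for 8 of the 10 genes; AURKA and TTK had no entry. The hexamer TTTGAA and its variants TTTAAA, then TTCGAA, and also CTTGAA, were searched on both strands as CHR words, and CCAAT on both strands as the CCAAT box. TTTAAA and TTCGAA read the same on either strand. A CHR word was found in 6 of the 8 genes, beside 36.7% of the 27305 genes with a promoter entry. CCAAT was found in all 8, beside 39.7% of genes. Words for E2F factors (TTTCCCGC, TTTGGCGC, TTTCGCGC and TTTGCCGC) were searched too and found in 1 of the 8, CDK1, beside 3.99% of genes. A CHR word that began within 30 bases before the start was found in 5 of the 8, beside 4.93% of genes. The bound of 30 bases equals the position of the farthest of these 5, that of CCNB1. Of the CHR words searched, TTCGAA was found in 1 of the 8 genes, BUB1, and CTTGAA in 1, CCNA2. The bound and words thus follow these genes, and the shares of CHR words are no test of enrichment. The following stretches show these words with their surroundings. Whether the words bear on the ratios of ginkgolic acid over DMSO was not tested. Capitals mark the CHR word, or, for NEK2, where no CHR word was found, the CCAAT box nearest to the start.
PLK1: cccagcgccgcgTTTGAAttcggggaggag
CDK1: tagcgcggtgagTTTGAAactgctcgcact
CCNB1: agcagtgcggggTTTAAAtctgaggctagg
CCNB2: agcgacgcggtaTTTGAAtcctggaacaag
CCNA2: agtcgcgggataCTTGAActgcaagaacag
BUB1: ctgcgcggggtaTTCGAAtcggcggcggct
NEK2: gcccaccgcctgCCAATagactgcgagat

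In GRCh38.p14 these stretches lie at chr16:23678848-23678877 on the plus strand for PLK1, chr10:60778453-60778482 (plus) for CDK1, chr5:69167108-69167137 (plus) for CCNB1 and chr15:59105105-59105134 (plus) for CCNB2. Those on the minus strand lie at chr4:121823894-121823923 for CCNA2, chr2:110678045-110678074 for BUB1 and chr1:211675639-211675667 for NEK2. The CHR word shown began 29 bases before the start in PLK1 and CCNB2, 30 in CCNB1, 28 in CCNA2 and 13 in CDK1, and at base 2 after it in BUB1. The word shown was picked as the nearest before any listed start, or else after it. For CDK1, the CHR words in the window of another listed start began at −161 and −131. The nearest CCAAT box upstream began 25 bases before the CHR word in both CCNB1 and CCNB2, 28 in CCNA2, 33 in CDK1, 44 in PLK1 and 55 in BUB1. AURKB held a CCAAT box and no CHR word in its window, which says nothing about whether the factors bind there. A match is a description of letters and not of a bound site.

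Markers of basal and other epithelial cells were detected in both lines. All 8 such genes with a row of their own in the MCF10A table, and all 10 in the other, reached 1 FPKM with DMSO. Their summed level was 456 FPKM with ginkgolic acid and 685 with DMSO in MCF10A and 1584 and 1782 in the other line. These sums cover different genes and cannot be set side by side between lines. KRT5 and KRT6A had a row of their own only in the other line. They were at 614 and 265 FPKM with ginkgolic acid and at 990 and 262 with DMSO. In MCF10A 5 of the 8 were at least 2-fold lower with ginkgolic acid and 1 was higher, with a median log2 ratio of −1.16, beside 0 and 1 of 10 and a median of 0.15 in the other line; the part of this in the results below was not tested. Markers of fibroblasts summed to between 23.1 and 73.1 FPKM (6 of 6 genes with a row), of leukocytes to between 10.7 and 16.9 (5 of 6) and of endothelium to between 2.89 and 10.9 (4 of 5). With DMSO, 4 fibroblast, 2 leukocyte and 2 endothelial markers also reached 1 FPKM in MCF10A, and 5, 2 and 2 in the other line. That level therefore does not set the cell types apart. The fibroblast marker DCN was at 63.4 FPKM with DMSO in the other line, above the epithelial KRT14 at 16.2. No marker with a row was listed at 0, and the part of these cell types in the results was not tested. CDKN2A, whose locus is deleted in MCF10A, was listed at 0 in all 4 groups. NOTCH1 itself was at 5.03 FPKM in the DMSO group of the line named for it and at 11.4 in MCF10A, which goes against the label, and at 12.4 and 6.18 FPKM in the ginkgolic acid groups, which does not. The line is called NOTCH1-labelled here. An FPKM for NOTCH1 as a whole cannot single out transcripts of its intracellular domain.

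In both lines all 10 mitotic kinase and cyclin genes were higher with ginkgolic acid than with DMSO. In MCF10A all 10 were at least 2-fold higher, where 24.2% of the 17791 genes with a ratio were, 6 were at least 4-fold higher, where 9.22% of genes were, and 1 was at least 8-fold higher, where 3.18% were. In the NOTCH1-labelled line all 10 were at least 2-fold higher, where 18.9% of 19619 genes were, and all 10 were also past 4-fold and 8-fold, where 5.54% and 1.61% of genes were. The median log2 ratio of the 10 genes was 2.15 in MCF10A and 4.59 in the NOTCH1-labelled line, beside a median of 0.06 over all genes in each. With equal sums of FPKM over all rows these medians were 4.53 and 4.1, so that their order turned. Being at least 2-fold higher in both lines was shared by 5.15% of the 15582 genes with a ratio in each. The share of all genes past 2-fold depends on scaling and on the minimum level, while the count of 10 held under every setting run. Every rescaling run moved the MCF10A ratios upward, however. The lowest of the 10 there, AURKB, had a log2 ratio of 1.18, so a downward shift was not tried. With the groups of a table rescaled to the same sum of FPKM over all rows, the share past 2-fold in MCF10A was 90.8% upward and 0.63% downward, in place of 24.2% and 15.4%. In the NOTCH1-labelled line these shares were 10.4% and 31.1% in place of 18.9% and 19.0%.

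**Figure D1:**
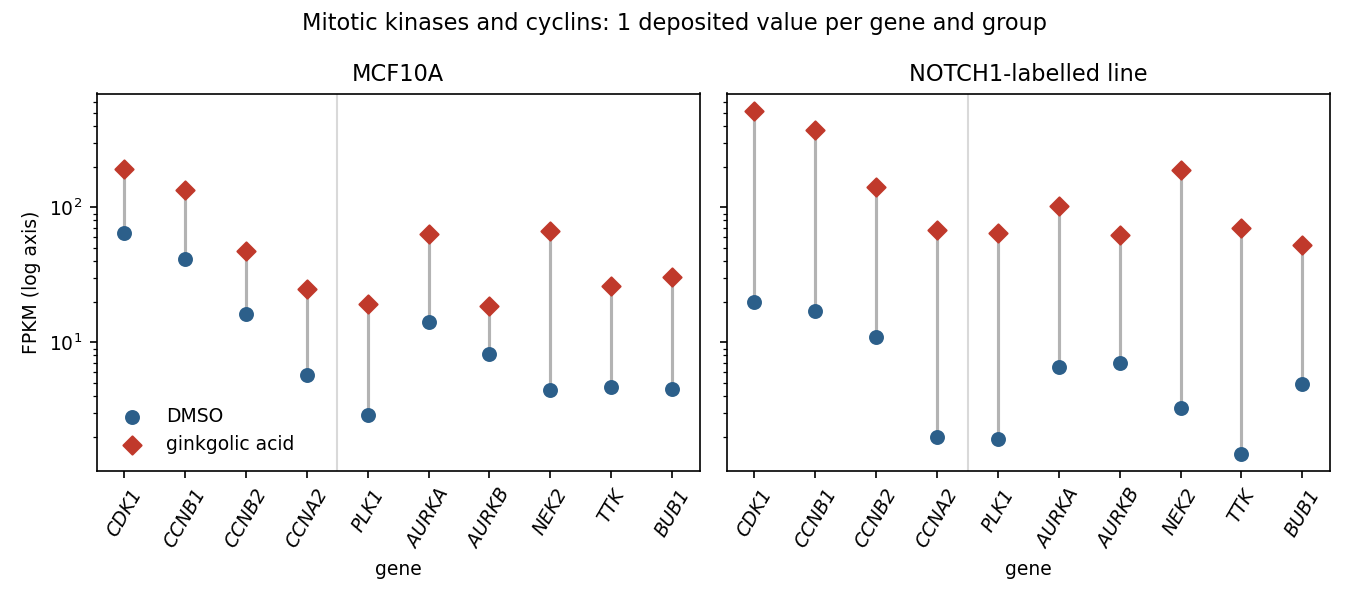
FPKM (log axis) of the 10 genes with DMSO (blue circles) and ginkgolic acid (red diamonds) in MCF10A (left) and the NOTCH1-labelled line (right), with 1 deposited value per gene and group; the grey line separates CDK1 and the cyclins from the other kinases. Every red point lies above its blue point, with the smallest gap at AURKB in both lines (18.6 against 8.21 FPKM in MCF10A, and 62.5 against 7.04 in the NOTCH1-labelled line).

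CDK1, the kinase that drives entry into mitosis, had the highest level of the 10 genes in every group. It was at 191 FPKM under ginkgolic acid against 64.9 under DMSO in MCF10A, a log2 ratio of 1.56, and at 521 and 19.8 FPKM in the NOTCH1-labelled line, a log2 ratio of 4.72. Among all genes of the NOTCH1-labelled table CDK1 ranked 247 under ginkgolic acid against 4419 under DMSO. CDK1 is listed on chromosome 10 from 62538089 to 62554610 (hg19) in the MCF10A table.

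CCNB1 encodes the main cyclin B of mitotic entry and was second in level in all 4 groups. It was at 134 FPKM under ginkgolic acid against 41.3 under DMSO in MCF10A, and at 377 and 17.2 FPKM in the NOTCH1-labelled line, with log2 ratios of 1.69 and 4.45. CCNB2, a B-type cyclin associated with the Golgi apparatus, was at 47.3 and 16.2 FPKM and at 141 and 11 FPKM, with log2 ratios of 1.54 and 3.68. Among the 3 cyclins CCNB2 thus had the smallest ratio in both lines. CCNA2, the A-type cyclin of S and G2 phase, was at 25 and 5.73 FPKM in MCF10A and at 68.4 and 1.98 FPKM in the NOTCH1-labelled line. Its log2 ratios, 2.13 and 5.11, were the largest of the 3 cyclins in each line, from the lowest DMSO level of the 3. On the tables' intervals (hg19), CCNB1 lies on chromosome 5 from 68462837 to 68474072, CCNB2 on chromosome 15 from 59397277 to 59425449 and CCNA2 on chromosome 4 from 122722472 to 122745087.

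PLK1, the polo-like kinase of mitotic entry and spindle assembly (chromosome 16, 23688977 to 23724821), had the lowest DMSO level of all 10 genes in MCF10A. It was at 19.2 FPKM under ginkgolic acid against 2.88 under DMSO there, and at 64.4 and 1.93 FPKM in the NOTCH1-labelled line, a 33.3-fold difference beside 6.67-fold in MCF10A, an order that turns with equal sums (difference of log2 ratios −0.55). AURKA, the Aurora kinase of the spindle poles (chromosome 20, 54944445 to 54967393), was at 63.3 and 14.1 FPKM in MCF10A and at 103 and 6.58 FPKM in the NOTCH1-labelled line, with log2 ratios of 2.17 and 3.97. AURKB, the catalytic subunit of the chromosomal passenger complex (chromosome 17, 8108046 to 8113918 in the MCF10A table), was at 18.6 and 8.21 FPKM and at 62.5 and 7.04 FPKM. Its log2 ratios of 1.18 and 3.15 were the smallest of the 10 genes in both lines. In MCF10A the AURKB ratio exceeded that of 79.3% of all genes, the lowest such standing of the 10.

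NEK2, the kinase of centrosome separation (chromosome 1, 211836114 to 211848960 in the MCF10A table), had the largest ratio of the 10 genes in both lines. It was at 67.3 FPKM under ginkgolic acid against 4.45 under DMSO in MCF10A, a 15.1-fold difference, and at 190 and 3.24 FPKM in the NOTCH1-labelled line, a 58.5-fold difference. Only 199 of 17791 genes had a higher ratio in MCF10A and 16 of 19619 in the NOTCH1-labelled line. With ginkgolic acid NEK2 ranked 3 in level among the 10 genes in both lines, and 9 and 7 with DMSO.

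Both kinases of the spindle checkpoint were higher as well. TTK, also called MPS1 (chromosome 6, 80713604 to 80752244 in the MCF10A table), was at 26.0 FPKM under ginkgolic acid against 4.65 under DMSO in MCF10A, and at 70.1 and 1.49 FPKM in the NOTCH1-labelled line, with log2 ratios of 2.48 and 5.56. BUB1 (chromosome 2, 111395275 to 111435691) was at 30.4 and 4.49 FPKM and at 53.0 and 4.91 FPKM, with log2 ratios of 2.76 and 3.43. With DMSO the 2 genes were at like levels in MCF10A, with TTK at 1.04 times BUB1, whereas in the NOTCH1-labelled line TTK was at 0.302 times BUB1. With ginkgolic acid these quotients were 0.853 and 1.32.

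Several rows share their interval with other genes, and the sources used here do not say how reads were divided among overlapping genes. The interval of PLK1 is shared with ERN2, at 0.645 FPKM under ginkgolic acid against 0.52 under DMSO in MCF10A, and at 0.515 and 2.84 FPKM in the NOTCH1-labelled line. That of CCNA2 is shared with EXOSC9, a subunit gene of the RNA exosome, at 57.7 and 35.9 FPKM and at 72.7 and 56.1 FPKM, above CCNA2 in every group. A snoU13 row with the interval of CCNB1, a small nucleolar RNA in the deposited table, was listed at 95.8 FPKM with ginkgolic acid in MCF10A and at 0 in the other 3 groups. None of the 10 genes holds an annotated small RNA in GENCODE release 29. Of pseudogenes named after these genes, NEK2P4 was at 0.782 and 0.282 FPKM in MCF10A and 1.32 and 0.305 FPKM in the NOTCH1-labelled line, and NEK2P2 was listed at 0.

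The quotient of 2 genes within 1 group does not depend on how that group was scaled, so it can be set side by side across the separately normalized tables. CCNB1 kept nearly the same level relative to CDK1, between 0.637 and 0.87 in the 4 groups. CCNA2 was at 0.0884 of CDK1 with DMSO and 0.131 with ginkgolic acid in MCF10A, and at 0.0999 and 0.131 in the NOTCH1-labelled line. NEK2 spanned the widest range, at 0.0685 of CDK1 with DMSO and 0.352 with ginkgolic acid in MCF10A and at 0.164 and 0.365 in the NOTCH1-labelled line. TTK was at 0.0717 and 0.136 and at 0.0751 and 0.135. AURKB was lower relative to CDK1 with ginkgolic acid in both lines, at 0.127 and 0.0974 and at 0.356 and 0.12.

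For 8 of the 9 genes set against CDK1, the lines lay closer together with ginkgolic acid than with DMSO, as they did for 72.8% of 15572 other genes set against CDK1. The quotient differed between lines by a median of 2.2-fold with DMSO, with a range of 1.05-fold to 3.59-fold, and by a median of 1.1-fold with ginkgolic acid, with a range of 1.0-fold to 1.68-fold. Over the other genes these medians were 3.57-fold and 2.3-fold. With ginkgolic acid 7 of the 9 quotients were within 1.5-fold of each other between lines, where 18% of the other genes were, and with DMSO 3 were, where 6.16% were. BUB1 was at 0.0692 of CDK1 with DMSO in MCF10A and 0.248 in the NOTCH1-labelled line, and at 0.159 and 0.102 with ginkgolic acid. The exception was AURKA, which was at 0.217 and 0.333 of CDK1 with DMSO and at 0.331 and 0.198 with ginkgolic acid. All 9 quotients share CDK1, so they are not independent of one another. CDK1 had the lowest log2 quotient between lines with DMSO, −1.71 beside a median of −0.84. With ginkgolic acid its 1.45 lay near the median of 1.47. The count of 8 thus holds for CDK1 as divisor. Between lines, NEK2 over PLK1 differed 1.09-fold with DMSO and 1.19-fold with ginkgolic acid, and AURKA over AURKB 1.83-fold and 2.07-fold. CCNB1 over CCNB2 (1.63 and 1.06), CCNB1 over CCNA2 (1.21 and 1.03) and TTK over BUB1 (3.43 and 1.55) lay closer.

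**Figure D2:**
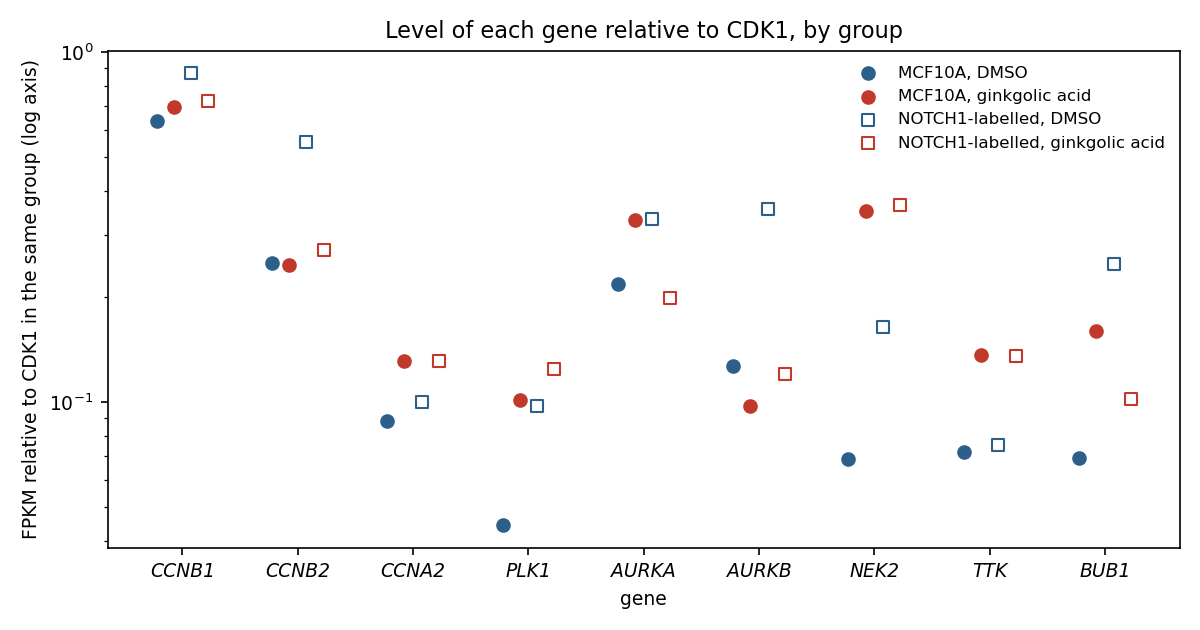
Level of each gene divided by that of CDK1 in the same group (log axis), in MCF10A (filled circles) and the NOTCH1-labelled line (open squares), with DMSO (blue) and ginkgolic acid (red). The red circle and red square nearly coincide for CCNA2, TTK, NEK2 and CCNB1, whereas the blue symbols of PLK1, CCNB2, AURKB, NEK2 and BUB1 lie more than 2-fold apart.

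The balance between related genes differed as well. AURKA was at 1.71 times AURKB with DMSO in MCF10A and at 3.4 times with ginkgolic acid, and in the NOTCH1-labelled line the quotient was 0.936 and 1.65. CCNB1 was at 2.55 times CCNB2 with DMSO and 2.82 times with ginkgolic acid in MCF10A, and at 1.57 and 2.67 times in the NOTCH1-labelled line. NEK2 was at 1.54 and 3.5 times PLK1 in MCF10A and at 1.68 and 2.95 times in the NOTCH1-labelled line. AURKA over AURKB, CCNB1 over CCNB2 and NEK2 over PLK1 were thus higher with ginkgolic acid in each line. CCNB1 over CCNA2 was lower in each, at 7.21 with DMSO and 5.34 with ginkgolic acid in MCF10A and at 8.71 and 5.51 in the NOTCH1-labelled line. TTK over BUB1 was lower in MCF10A (1.04 and 0.853) and higher in the NOTCH1-labelled line (0.302 and 1.32).

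On the values as deposited, all 10 genes had a larger log2 ratio in the NOTCH1-labelled line than in MCF10A, with a median difference of 2.23, but the sign of that median reverses, to −0.64 and −0.36, when the groups of a table are set to the same sum of FPKM with or without its 100 highest rows. As deposited, 9 of the 10 genes differed by at least 1, where 21.5% of 15582 genes did, and 57.2% of genes had a difference above 0. The largest differences were those of CDK1, at 3.16, TTK, at 3.08, and CCNA2, at 2.99, and the smallest was that of BUB1, at 0.67; BUB1 turned to −2.2 and −1.92 under these sums, and CDK1, TTK and CCNA2 kept their sign. The standing of a ratio among all genes of its own table does not depend on such a factor, but it does depend on the minimum level. With a minimum of 5 FPKM, 12.4% of genes were at least 2-fold higher in MCF10A in place of 24.2%. In the NOTCH1-labelled line the share was 19.5% in place of 18.9%. The standings below hold for the minimum of 1 FPKM. In MCF10A the ratios of the 10 genes exceeded those of 79.3% to 98.9% of genes, and in the NOTCH1-labelled line those of 98.7% to 99.9%. Across the 10 genes the ratios of the lines had a Pearson correlation of 0.62 and a Spearman correlation of 0.53, given as a description over genes that are not independent.

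**Figure D3:**
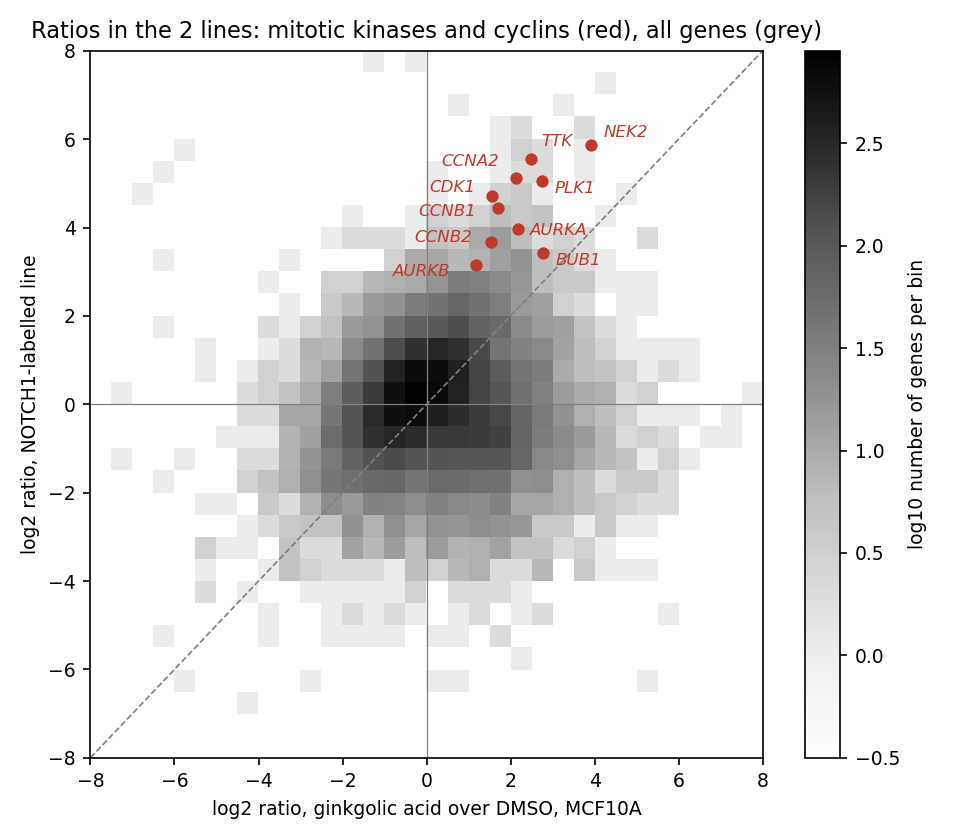
Log2 ratio of ginkgolic acid over DMSO in MCF10A (x axis) and in the NOTCH1-labelled line (y axis) for the 10 genes (red) and for 15582 genes as counts in bins of 0.5 (grey, log10 scale; values beyond the axes are drawn in the outermost bins), with the dashed line where both are equal. All 10 red points lie above the dashed line on the deposited values, NEK2 is farthest out and BUB1 is nearest to the line; rescaling the tables to equal sums moves the whole cloud along the axes and puts the median of the 10 below that line.

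The DMSO groups of the lines differed too, although the tables were normalized separately and these values are only side by side. Here 9 of the 10 genes were lower with DMSO in the NOTCH1-labelled line than in MCF10A, and 5 were at least 2-fold lower, where 10.3% of 18179 genes were. The median log2 quotient was −0.84, beside 0.2 over all genes. CDK1 was 3.28-fold lower, TTK 3.13-fold, CCNA2 2.9-fold, CCNB1 2.4-fold and AURKA 2.14-fold, whereas BUB1 had a log2 quotient of 0.13. With ginkgolic acid all 10 were higher in the NOTCH1-labelled line, 8 of them at least 2-fold, where 20.0% of 19201 genes were, and the median log2 quotient was 1.47 beside 0.29 over all genes. Ranks among all gene rows of a group need no common scale. With DMSO, CDK1 ranked 1675 in MCF10A and 4419 in the NOTCH1-labelled line, and TTK 8966 and 15970. The ranks of BUB1, 9076 and 9249, and AURKB, 7192 and 7887, lay closest together. All 10 genes ranked lower in the NOTCH1-labelled DMSO group than in the MCF10A one, and 19363 and 14830 genes reached 1 FPKM there. A rank depends on how many genes are detected. As a percentile among the genes at 1 FPKM or more, not all 10 stood lower in the NOTCH1-labelled DMSO group. BUB1 stood at 52.2 there and 38.8 in MCF10A, AURKB at 59.3 and 51.5, NEK2 at 42.7 and 38.6 and CCNB2 at 67.5 and 65.8. The remaining genes of the 10 stood lower there by this measure too.

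Other genes of the mitotic pathway were described by 6 lists. Of their 95 genes, 89 had a ratio in MCF10A, of which 21 were past 2-fold upward and 12 downward on the deposited values. In the NOTCH1-labelled line 88 had a ratio, with 39 past 2-fold upward and 4 downward. Over all genes the shares past 2-fold were 24.2% upward and 15.4% downward in MCF10A and 18.9% and 19.0% in the NOTCH1-labelled line, so that the MCF10A count of the list genes was near that of all genes. Annotated small RNAs lie within CIT, E2F3, ENSA, PLK4 and WEE1, and their part in those values was not tested. In each line 3 of the list genes reached the median ratio of the 10 mitotic kinases and cyclins: CDCA8, TPX2 and CIT in MCF10A, and UBE2C, PBK and TPX2 in the NOTCH1-labelled line.

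Genes whose products bind or activate these kinases were mostly higher. Of 12 partner genes with a ratio, 5 were at least 2-fold higher and 0 lower in MCF10A (24.2% and 15.4% of all genes), with a median log2 ratio of 0.97, and 11 higher and 0 lower in the NOTCH1-labelled line (18.9% and 19.0% of all genes), with a median of 2.64. TPX2, which activates Aurora A on the spindle, was at 34.3 FPKM under ginkgolic acid against 7.28 under DMSO in MCF10A and at 75.1 and 3.02 FPKM in the NOTCH1-labelled line. CDCA8 and BIRC5, which encode the Aurora B partners borealin and survivin, had log2 ratios of 3.03 and 1.79 in MCF10A and of 3.22 and 4.34 in the NOTCH1-labelled line, with CDCA8 at only 0.323 FPKM with DMSO in MCF10A. CASC5, also called KNL1, which recruits BUB1 to kinetochores, had log2 ratios of 0.99 and 3.64. BUB1B had no row of its own.

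Genes of the switch that turns CDK1 on and off went both ways. Of 12 with a ratio, 3 were at least 2-fold higher and 1 lower in MCF10A, and 7 higher and 1 lower in the NOTCH1-labelled line, with medians of 0.28 and 1.07. The MCF10A count was near the 24.2% of all genes that were higher there, and the share of all genes in the NOTCH1-labelled line was 18.9%. CDC25C, a phosphatase that activates CDK1, was at 12.3 FPKM under ginkgolic acid against 3.54 under DMSO in MCF10A and at 26.9 and 1.69 FPKM in the NOTCH1-labelled line. WEE1, the kinase that inhibits CDK1, was at 47.8 and 14.7 FPKM in MCF10A but at 42.0 and 177 FPKM in the NOTCH1-labelled line, and it holds an annotated small nucleolar RNA. PKMYT1, the other inhibitory kinase, had log2 ratios of 0.16 and 1.78. ENSA, whose phosphorylated product inhibits the phosphatase PP2A, was the 1 gene of the list that was at least 2-fold lower in MCF10A, with a log2 ratio of −1.27 that turns to 1.11 with equal sums, and had −0.09 in the NOTCH1-labelled line.

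Of 19 genes of the APC/C with its activators, inhibitor and targets, 5 were at least 2-fold higher and 1 lower in MCF10A, with a median of 0.2, and 6 higher and 0 lower in the NOTCH1-labelled line, with a median of 0.34 that turns to −0.14 with equal sums over all rows. Over all genes 24.2% were higher in MCF10A, near this list's count, and 18.9% in the NOTCH1-labelled line. The activator CDC20 was at 24.2 FPKM under ginkgolic acid against 6.57 under DMSO in MCF10A and at 69.5 and 3.61 FPKM in the NOTCH1-labelled line. The ubiquitin-conjugating enzyme genes UBE2C and UBE2S had log2 ratios of 2.0 and 1.46 in MCF10A and of 5.93 and 3.82 in the NOTCH1-labelled line. PTTG1, which encodes securin, had 1.71 and 3.26. ANAPC2, a subunit of the catalytic core, was the 1 gene of the list that was at least 2-fold lower in MCF10A, at −1.54, which turns to 0.84 with equal sums. The other subunit genes of the complex with a ratio lay within 2-fold in both lines on the deposited values.

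Of the other kinase genes, 3 of 16 were at least 2-fold higher and 1 lower in MCF10A, and 7 of 15 higher and 0 lower in the NOTCH1-labelled line, with medians of 0.51 and 0.96. Over all genes 24.2% and 18.9% were higher in these lines, so that the list did not stand above all genes by count in MCF10A. PBK, a kinase of mitotic cells, was at 102 FPKM under ginkgolic acid against 3.09 under DMSO in the NOTCH1-labelled line, and at 41.5 and 30.4 FPKM in MCF10A. PLK4, the kinase of centriole duplication, had log2 ratios of 0.86 and 2.63, MELK 1.22 and 2.37, and CIT, a kinase of cytokinesis, 2.17 and 2.09. PLK2, a relative of PLK1 induced by stress, was lower in MCF10A, at 26.0 and 80.8 FPKM, with a log2 ratio of −1.64 that turns to 0.74 with equal sums. AURKC, the Aurora kinase of germ cells, was between 0.272 and 1.24 FPKM in the 4 groups.

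Other cyclins and cyclin-dependent kinases, most of which act in G1 and S phase, differed from CDK1 in MCF10A. Of 10 such genes in MCF10A, 6 were at least 2-fold lower and 2 higher, where 15.4% and 24.2% of all genes were, with a median of −1.06 that turns to 1.32 and 1.45 when sums are made equal with or without the 100 highest rows. Of 9 in the NOTCH1-labelled line 0 were lower and 2 higher, where 19.0% and 18.9% of all genes were, with a median of 0.27 that turns to −0.22 with equal sums over all rows and to −0.07 with equal upper quartiles. CCND1, the cyclin of G1 phase, was at 3.55 FPKM under ginkgolic acid against 13.1 under DMSO in MCF10A and at 6.86 and 11.4 FPKM in the NOTCH1-labelled line. CCNE2, a cyclin of S phase entry, had log2 ratios of −1.85 and 0.56. With equal sums over all rows the MCF10A log2 ratios of CCND1 and CCNE2 were 0.5 and 0.53. CDK2, the partner of cyclins E and A, had 0.04 and 2.56. CCNA1, the second A-type cyclin, was higher in both lines, at 6.2 and 1.73 FPKM and at 16.3 and 1.41 FPKM.

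Among transcription factors and complexes that act on these promoters, 3 of 20 genes were at least 2-fold higher and 3 lower in MCF10A, and 6 of 21 higher and 3 lower in the NOTCH1-labelled line. Over all genes 24.2% were higher and 15.4% lower in MCF10A, and 18.9% and 19.0% in the NOTCH1-labelled line. The medians were −0.06 in MCF10A, which is above 0 under each of the 6 rescalings, and 0.38 in the NOTCH1-labelled line, which is −0.1 with equal sums over all rows. FOXM1, an activator of G2 and mitotic genes, was at 5.03 FPKM under ginkgolic acid against 1.96 under DMSO in MCF10A and at 13.5 and 2.55 FPKM in the NOTCH1-labelled line. MYBL2, which joins the MuvB complex in S phase, was at 1.34 and 1.42 FPKM and at 6.1 and 0.346 FPKM. E2F4, a repressor subunit of the DREAM complex, had log2 ratios of −1.86 and −1.28 and E2F3 of −1.4 and −1.43, and in MCF10A these turn to 0.52 and 0.98 with equal sums over all rows. The repressor E2F7 was higher, at 1.68 and 2.93. Its MCF10A levels were low, at 1.98 and 0.615 FPKM, and a pseudocount of 1 FPKM gave 0.88 there, less than 2-fold.

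**Figure D4:**
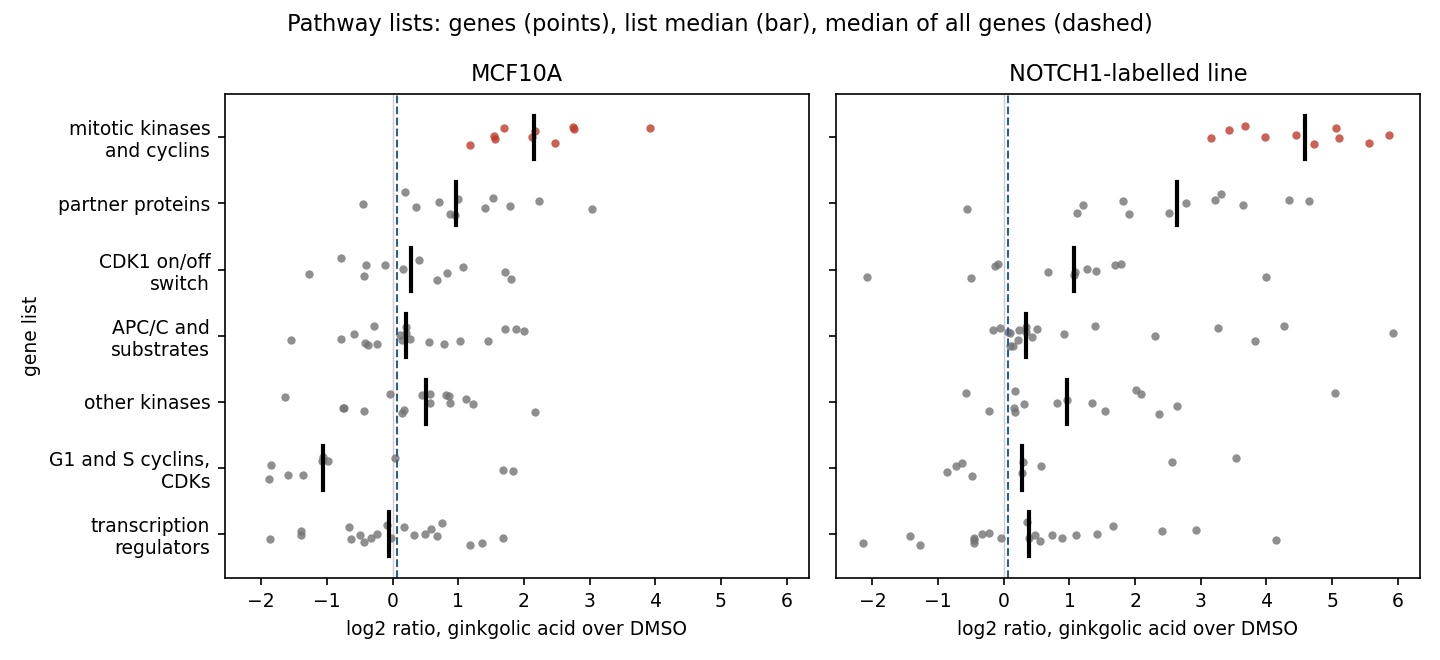
Log2 ratio of ginkgolic acid over DMSO for the 10 mitotic kinases and cyclins (red) and the genes of 6 pathway lists (grey) in MCF10A (left) and the NOTCH1-labelled line (right), on the deposited values; each point is 1 gene, black bars are list medians and the dashed line is the median of all genes. The 10 genes have medians of 2.15 and 4.59 and the partner genes 0.97 and 2.64. The other cyclins and cyclin-dependent kinases, most but not all of G1 and S phase, have a median of −1.06 in MCF10A that equal sums turn to 1.32.

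Over the 7762 other genes with at least 5 FPKM with ginkgolic acid in both lines, the ones whose pair of log2 ratios lay nearest to the median pair of the 10 genes were TPX2, ANLN, NCAPH, TRIB3, CDC20 and BIRC5. The measure is the Euclidean distance over 2 lines, so it rests on 2 values per gene. TPX2 had a distance of 0.1 and BIRC5 of 0.44. These 6 genes were picked as the smallest of 7762 distances, so their closeness was fixed by the choice. The minimum level was set on the ginkgolic acid groups, in which the 10 genes were high. The 10 genes themselves lay between 0.47 and 2.19 from their median pair. ANLN, which encodes the cytokinesis protein anillin, was at 151 FPKM under ginkgolic acid against 29.2 under DMSO in MCF10A and at 219 and 10.2 FPKM in the NOTCH1-labelled line. NCAPH, of condensin, had log2 ratios of 2.41 and 4.34. TRIB3, a pseudokinase of the stress response and not a mitotic gene, had 2.41 and 4.89. In all, 26 other genes lay within a distance of 1, and 145 within 2.19, the largest distance of any of the 10 genes.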

How the data were processed

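Per the labels' protocols, the RNeasy kit gave the RNA and the ScriptSeq Complete Gold kit the libraries. The submitters' processing notes name Cuffdiff 2.1.1, Cufflinks 2.1.1, Bowtie2 2.1.0 and TopHat2 2.0.8b, with the build GRCh37 (hg19). Not given in the sources used here are the annotation, settings, strand handling and the way in which both samples of a group became 1 value. The authors deposited FPKM, 1 value per gene and group, in 2 separately normalized tables. The labels do not say whether the samples of a group were separate cultures.

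Of 70227 MCF10A rows and 59662 NOTCH1-labelled rows, those without a symbol (15977 and 5455) or with several (1575 and 1570) were left out, as were repeated symbols, intervals shorter than 200 bases and sequences other than the standard chromosomes. Ratios are log2(ginkgolic acid / DMSO) with no pseudocount, for genes above 0 in both groups and with at least 1 FPKM in either. With values per group no limma test could be run, so 2-fold is a rule of size. Interval starts in the tables count from 0 (end minus start equalled the GENCODE length for 5451 protein-coding genes and was 1 below it for 223) and are printed counting from 1. GENCODE release 29 served for small RNAs and lengths only.

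The named genes are the 10 genes, up to 3 genes per list and line with the largest absolute ratio beyond 2-fold, genes alone in direction in their list, the 6 nearest genes and pseudogenes of the 10. Genes that share an interval and the remaining list genes were named after their values were seen. The genes and lists were chosen with earlier results of these data known. Counting was checked on simulated data. Python 3.11.15, numpy 2.4.6, pandas 2.3.3 and matplotlib 3.10.9 were used. Alternatives were other minimum levels, a pseudocount, means, other folds, joined rows and 6 rescalings.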

Additional observations from a re-analysis of the deposited data

Results flagged for a closer look

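WEE1, the kinase that inhibits CDK1, was higher with ginkgolic acid in 1 line and lower in the other. Its log2 ratio was 1.71 in MCF10A, from 47.8 FPKM under ginkgolic acid against 14.7 under DMSO, and −2.08 in the NOTCH1-labelled line, at 42.0 and 177 FPKM. The signs held under the pseudocount and all 6 rescalings. The difference was not tested, since the tables hold 1 value per group. WEE1 holds an annotated small nucleolar RNA, and the part of its reads in these values was not tested.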

How the results depend on the processing

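No paired analysis was possible because the tables hold 1 value per group, and for the same reason no replicate could be left out. The count of 10 genes at least 2-fold higher held in both lines under every setting run, and at 4-fold it was 6 in MCF10A. None of the 6 rescalings lowered the MCF10A ratios, so none could have lowered that count there. The median log2 ratios in MCF10A and the NOTCH1-labelled line and the median difference between lines, 2.15, 4.59 and 2.23 as reported, were 2.02, 4.43 and 2.09 with a pseudocount of 1 FPKM and 2.22, 4.5 and 2.28 as means. They were 2.74, 4.63 and 1.68 with equal medians of housekeeping genes, and 2.26, 4.45 and 1.98 with the median ratio removed (over genes at 1 FPKM or more in each group). With equal sums over all rows they were 4.53, 4.1 and −0.64, and without the 100 highest rows 4.66, 4.5 and −0.36. For 2 settings chosen after seeing the data, they were 3.16, 5.21 and 1.84 with equal sums over gene rows kept and 2.33, 4.25 and 1.71 with equal upper quartiles. Other minimum levels and joined rows could not change these values. All 10 genes reached at least 18.6 FPKM with ginkgolic acid, above every minimum, and no joined row held any of them. The log2 shift of every ratio was 2.38, 2.51, 0.59, 0.11, 1.02 and 0.19 in MCF10A and −0.49, −0.08, 0.04, −0.14, 0.62 and −0.33 in the NOTCH1-labelled line for equal sums over all rows, sums without the 100 highest, housekeeping genes, the median, gene rows kept and upper quartiles.

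With equal sums over all rows, the difference between lines reversed for PLK1 (−0.55), AURKA (−1.07), AURKB (−0.9), CCNB1 (−0.11), CCNB2 (−0.73), BUB1 (−2.2) and NEK2 (−0.92). Without the 100 highest rows it reversed for PLK1 (−0.27), AURKA (−0.8), AURKB (−0.62), CCNB2 (−0.45), BUB1 (−1.92) and NEK2 (−0.64). List medians that reversed in MCF10A were those of the other cyclins and cyclin-dependent kinases (1.32 and 1.45 under these 2 sums) and of transcription regulators (2.32, 2.46, 0.54, 0.05, 0.96 and 0.13 under the 6 rescalings in the order above). In the NOTCH1-labelled line they were those of the APC/C (−0.14), the other cyclins and cyclin-dependent kinases (−0.22, and −0.07 with equal upper quartiles) and regulators (−0.1). Single genes of the lists reversed in MCF10A under these 2 sums as well: ANAPC2 (0.84 and 0.97), CCND1 (0.5 and 0.64), CCNE2 (0.53 and 0.67), E2F3 (0.98 and 1.11), E2F4 (0.52 and 0.65), ENSA (1.11 and 1.25) and PLK2 (0.74 and 0.88). MYBL2, at −0.08 in MCF10A, was at 2.3, 2.43, 0.51, 0.03, 0.93 and 0.1 under the 6 rescalings. In the NOTCH1-labelled line ANAPC2 turned to −0.27 with equal sums over all rows and −0.12 with equal upper quartiles, and ENSA and PLK2 to 0.54 and 0.05 with equal sums over gene rows kept. The cause of these reversals was not tested. With a minimum of 5 FPKM, 12.4% of genes were at least 2-fold higher and 17.0% lower in MCF10A, and 19.5% and 9.61% in the NOTCH1-labelled line.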
